A study of Mus musculus with 8 samples.

Results

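The second hour of the response of RAW264.7 cells to lipopolysaccharide (LPS) was described from the libraries taken at 60 and at 120 min. RAW264.7 is a virus-transformed mouse macrophage line, and all 8 libraries of the series come from unmodified cells of this line, 1 left unstimulated (0 min) and 7 given 100 ng/ml LPS, harvested every 15 min up to 90 min and at 120 min. With 1 library at each time, a ratio of 120 to 60 min has no replicate check, no p-value is given, and every interval covers counting error only. Of 23143 gene symbols counted, 11210 had at least 50 raw counts in 1 of both libraries and were compared. The authors deposited raw counts of reads per gene symbol. They were divided here by size factors, the median over genes of each library's count relative to the geometric mean of all 8 libraries, and the result is called the normalized count. A gene was called higher or lower where its normalized count at 120 min was at least 2-fold above or below that at 60 min. In such bulk samples a lower RNA level per cell and fewer cells that carry the RNA cannot be told apart.

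LPS, a component of the outer membrane of Gram-negative bacteria, is sensed by macrophages through CD14, MD-2 and the receptor TLR4. The adaptors MyD88 and TRIF pass the signal to MAP kinases, to NF-kB and to interferon regulatory factors. Genes that need no new protein for their induction, among them those of Fos, Jun and Egr factors and Tnf, make up the primary response, and many of their mRNAs are unstable. Later primary genes and the secondary genes, which depend on newly made proteins such as interferon beta, IkB-zeta and C/EBP-delta, include Il6, Nos2 and the interferon-stimulated genes.

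Total counts ranged from 100250892 to 159077286 over the 8 libraries, with 134501676 at 60 min and 159077286 at 120 min. The ribosomal RNA precursor Rn45s took 8.27% of the counts at 60 min and 9.11% at 120 min, while its share was 20.5% at 75 min and 15.8% at 90 min, the libraries that lie between them. All 10 macrophage markers examined were well counted, and their summed normalized count lay between 738604 and 836205 in the 8 libraries. Of 20 markers of other cell types in the table, 10 had no read in any library, among them those of epithelium (Epcam, Cdh1), fibroblasts (Col1a1, Col1a2) and red cells (Hbb-b1). The only marker of this kind to reach 50 counts was S100a8, with 59 counts at 60 min and 62 at 120 min. The labels give the RNA fraction as cytoplasmic, whereas the methods describe total RNA.

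During the second hour, 308 genes rose (2.75% of the 11210 genes compared) and 303 fell (2.70%). Scaling by total counts in place of size factors changed this balance to 256 and 382. At least 4-fold, 84 genes were higher and 36 lower, and at least 16-fold, 12 were higher and 2 lower. Many of these had passed the minimum of 50 raw counts only in the library where they were high, and had to differ for that reason. With 50 raw counts in both libraries, 249 rises and 248 falls were left at 2-fold. At least 4-fold 46 genes were left higher and 25 lower, and at least 16-fold 4 were left higher and 2 lower. The counts and medians of gene lists given below include genes that passed the minimum in 1 library only. They are to be read beside the 2.75% and 2.70% of all genes. On this scale most genes moved little relative to one another. The ratio of 7012 genes (62.6%) lay within 1.2-fold, and the median log2 ratio of all genes was 0.01. The size factors set this median near 0, so a change shared by most genes would not show in these ratios. The whole 95% interval lay beyond 2-fold for 243 of the rises and 190 of the falls. Just outside and inside the limit stood Pif1 with a ratio of 2.00 and Smug1 with 2.01 on the upper side, and Itpk1 and Ppp1r10, both with 0.50 after rounding, on the lower side. The genes that rose had a median level of 2.11 rpkm (reads per kilobase of transcript, scaled to the library's total count) at 60 min, and the genes that fell of 2.08 rpkm, against 9.61 rpkm for all genes.

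**Figure D1:**
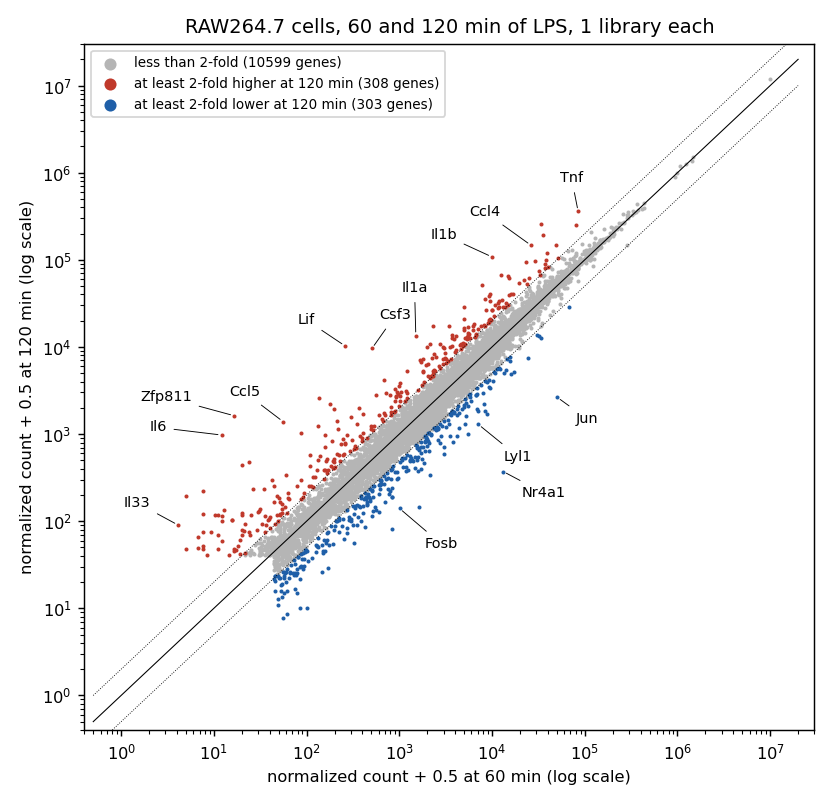
Normalized count plus 0.5 of each of the 11210 genes at 60 min (horizontal, log scale) and at 120 min (vertical, log scale), 1 library each, with the solid line at equality and dotted lines at 2-fold. The 308 genes that rose lie above the upper dotted line, with Zfp811, Il6 and Lif farthest from it, and the 303 that fell lie below the lower line, with Nr4a1 and Jun farthest.

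Of the 15 largest rises, ranked by the lower bound of their interval, 10 were those of cytokines and chemokines. This count was not set against the share of such genes among all genes compared. Among the 10, Il6, Csf2, Il27 and Il33 had passed the count minimum only at 120 min and so had to differ. The same held for Zfp811, Nos2 and Edn1 among the others. Counted without Rn45s, the 308 rising genes took 1.33% of the counts at 60 min and 3.94% at 120 min, and the 303 falling genes 0.800% and 0.278%. The direction of these shares was fixed, since the same 2 libraries made the calls. At 75 and 90 min, the rising genes took 1.81% and 2.47%, and the falling genes 0.551% and 0.425%. A mere 6 mRNAs of rising genes, those of Tnf, Irg1, Ccl3, Ccl4, Il1b and Cxcl2, went from 0.217% to 1.03% of the counts. They took 0.302% at 75 min and 0.522% at 90 min.

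Interleukin 1 is a fever-inducing cytokine with 2 forms, encoded by Il1a (chr2:129299609-129310186, GRCm38) and Il1b (chr2:129364569-129371164). In the order of the 8 times from 0 to 120 min, which is kept throughout, the normalized count of Il1b was 38.5, 55.2, 654, 1938, 9961, 22044, 45311 and 108097.5. It went up at every step and was 10.85-fold higher at 120 than at 60 min (95% interval 10.64 to 11.06). Il1a had normalized counts of 4.3, 4.8, 88.4, 462, 1506, 2853, 5737 and 13504, a ratio of 8.97 over the second hour (8.53 to 9.43). Per transcript length, Il1b stood at 618 rpkm and Il1a at 53.1 rpkm at 120 min. Of the 6 members of the IL-1 family that were compared, 3 rose and none fell, with a median log2 ratio of 1.99. Il33, an alarmin of the family, was the third, but it rests on a normalized count of 3.6 at 60 min and 90.0 at 120 min (ratio 25.3, interval 9.59 to 94.3). Il1rn, the antagonist of the IL-1 receptor, did not reach 2-fold, with 2750 at 60 min and 4816 at 120 min (ratio 1.75), and Il18 had a ratio of 1.03. The RefSeq span of Il1b is overlapped by the transcript Il1bos, and whether the counting used strand is not given in the sources used here.

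CC chemokines draw monocytes, T cells and immature dendritic cells to inflamed tissue. They moved most as a family, with 8 of 10 members higher, none lower and a median log2 ratio of 2.33. Among the 8, Ccl7 and Ccl20 had passed the count minimum only at 120 min, with normalized counts of 24.9 and 10.7 at 60 min. Ccl4 (chr11:83648624-83664683), a chemokine that attracts monocytes and T cells, had normalized counts of 1744, 1204, 3630, 7845, 26218, 48562.5, 75267 and 147215, with a ratio of 5.62 (5.55 to 5.69). Its neighbour Ccl3, with 35580 at 60 min and 190811 at 120 min, had a ratio of 5.36. Both genes had a lower value at 15 min than at 0 min and a higher value at each later step. The RefSeq spans of Ccl3 and Ccl4 overlap, and the authors discarded reads that matched more than 1 symbol. Ccl5, which attracts T cells and is a late gene of the response, went through 16.3, 21.9, 27.0, 37.3, 55.2, 105.6, 265.3 and 1391. It thus stayed low for the first hour and was 25.2-fold higher at 120 than at 60 min (19.6 to 33.0). Ccl22, a ligand of CCR4, had 179 at 60 min and 2211 at 120 min (ratio 12.3). Ccl9 and the monocyte attractant Ccl2 were near 3-fold higher, with ratios of 3.03 and 2.98, while Ccl6 and Ccl25 stayed under 2-fold.

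Among the CXC chemokines 3 of 5 were higher and none lower (median log2 ratio 1.62). Of the 3, Cxcl11 had passed the count minimum only at 120 min. Cxcl10, which attracts activated T cells through CXCR3, went from 5032.5 at 60 min over 7396 and 13190 to 28895 at 120 min (ratio 5.74), and Cxcl11, a ligand of the same receptor, from 31.2 to 137.8 (ratio 4.42). The neutrophil attractant Cxcl2 differed in its course, with 145, 566, 23209, 62410, 48402, 39878, 72440 and 149203. It had thus been high at 45 min, was lower at 75 min, and was 3.08-fold higher at 120 than at 60 min. Cxcl16 and Cxcl14 had ratios of 1.83 and 0.777.

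Of 12 cytokines of the IL-6, IL-10 and IL-12 families and colony-stimulating factors, 6 rose and none fell (median log2 ratio 1.48). Among the 6, Il6, Csf2 and Il27 had passed the count minimum only at 120 min and so had to differ. Il6 (chr5:30013114-30019975), a driver of the acute phase response, had normalized counts of 0.9, 0.0, 3.3, 1.1, 11.6, 36.6, 156 and 974. Its ratio of 84.2 (49.0 to 158) followed a first hour in which it was hardly detected. Lif, a cytokine of the same receptor family, went through 3.4, 2.9, 34.4, 73.4, 258, 697, 1709 and 10307 (ratio 39.9, interval 35.5 to 45.0). The granulocyte factor Csf3 went from 507.5 to 9634 (ratio 19.0), the granulocyte-macrophage factor Csf2 from 4.5 to 195 (ratio 43.9, interval 18.5 to 136), and Il27, a subunit of interleukin 27, from 23.2 to 483 (ratio 20.9). All 5 rose at every step from 60 over 75 and 90 to 120 min. The anti-inflammatory cytokine Il10 reached its level sooner, with 47.2, 159.1, 198 and 193 at 60, 75, 90 and 120 min (ratio 4.09). Il15 and Osm, with ratios of 0.673 and 0.937, did not pass the limit.

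**Figure D2:**
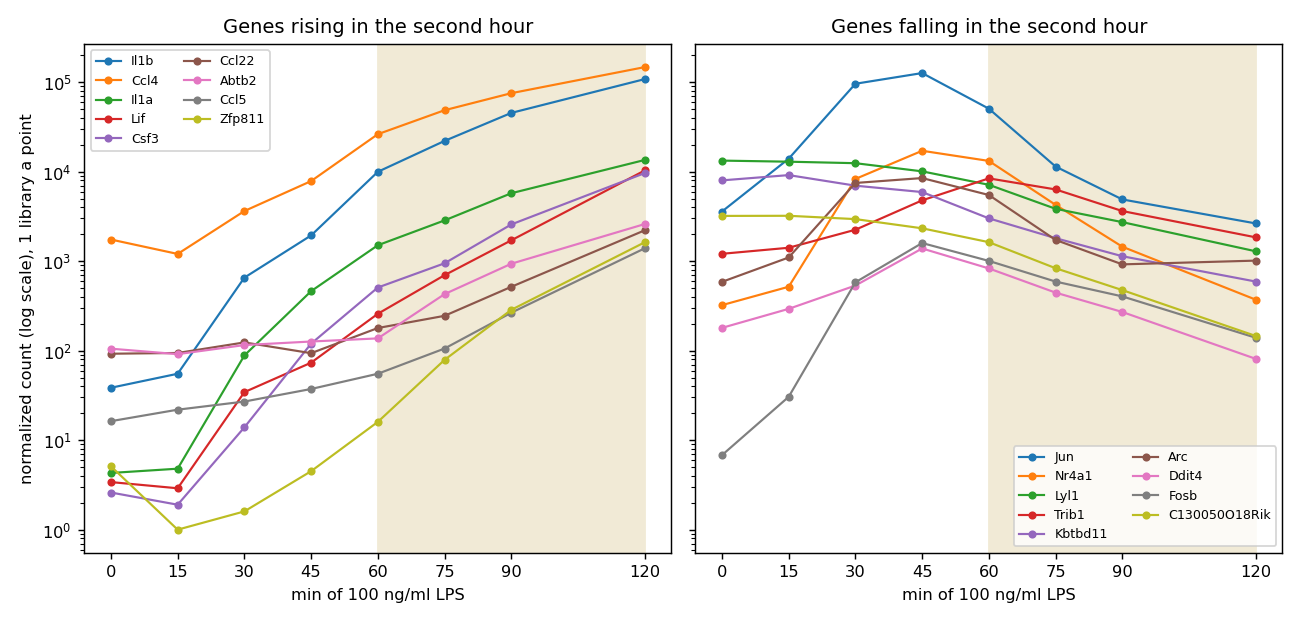
Normalized count (vertical, log scale) against min of LPS (horizontal) for 9 genes that rose and 9 that fell in the second hour, which is shaded, with 1 library a point. Ccl5, Abtb2, Ccl22 and Zfp811 climb mainly within the shaded hour, while Il1b, Il1a and Lif were already climbing before it, and Jun, Nr4a1, Fosb and Arc fall from a maximum at 45 min, whereas Lyl1, Kbtbd11 and C130050O18Rik had no such maximum.

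Stretches before the start sites of Il6, Lif and Cxcl10 were chosen, after the search, because they hold some of the letters searched. The promoter of Jun, which fell in the second hour and holds no exact match to those letters, stands beside them. They do not stand for the rest, since of the 15 largest rises 11 had a promoter entry, of which 4 had a match in this window (Il1a, Il6, Lif and Edn1) and Il1b, Csf2, Ccl22, Cish, Abtb2, Zfp811 and Il33 had none. Of the 15 largest falls 12 had an entry, of which 2 had a match, Fosb with the NF-kB consensus and Frmd4b with the AP-1 element in 1 of its promoters. Each runs 5′ to 3′ over the 250 bases before the RefSeq start (GRCm38.p6), with matches in capitals. Il6 lies at chr5:30012864-30013113 (plus strand), Lif at chr11:4257318-4257567 (plus strand), Cxcl10 at chr5:92348890-92349139 (minus strand) and Jun at chr4:95052223-95052472 (minus strand).
Il6: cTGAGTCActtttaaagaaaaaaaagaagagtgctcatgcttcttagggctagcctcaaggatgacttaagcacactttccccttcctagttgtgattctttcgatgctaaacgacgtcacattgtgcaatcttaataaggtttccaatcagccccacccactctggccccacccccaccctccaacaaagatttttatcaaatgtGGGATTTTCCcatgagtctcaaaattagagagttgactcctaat
Lif: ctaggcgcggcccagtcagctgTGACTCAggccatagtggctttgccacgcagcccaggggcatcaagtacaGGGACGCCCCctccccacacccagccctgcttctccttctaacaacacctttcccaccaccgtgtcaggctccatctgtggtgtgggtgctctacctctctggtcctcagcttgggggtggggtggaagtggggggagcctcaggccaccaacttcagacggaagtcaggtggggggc
Cxcl10: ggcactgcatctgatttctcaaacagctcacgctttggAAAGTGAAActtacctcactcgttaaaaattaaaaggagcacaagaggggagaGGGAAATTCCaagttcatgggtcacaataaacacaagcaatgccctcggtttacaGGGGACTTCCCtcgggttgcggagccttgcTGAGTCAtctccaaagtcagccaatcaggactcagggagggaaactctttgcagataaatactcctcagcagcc
Jun: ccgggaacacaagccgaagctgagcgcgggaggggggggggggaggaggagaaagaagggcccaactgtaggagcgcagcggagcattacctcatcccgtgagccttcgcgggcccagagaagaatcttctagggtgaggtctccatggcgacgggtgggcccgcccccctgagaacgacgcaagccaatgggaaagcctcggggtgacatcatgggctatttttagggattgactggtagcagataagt

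The letters searched on both strands were the NF-kB consensus of 10 letters, its forms GGGANTTTC and GGGANTTCC, which overlap it, the core AAANNGAAA of elements bound by interferon regulatory factors, the cAMP response element TGACGTCA, and the AP-1 element TGANTCA, which is bound by Fos and Jun. The NF-kB match of Il6 starts 44 bases before its start site and its AP-1 match 249 bases before, and those of Lif start 178 and 228 bases before. Cxcl10 holds overlapping NF-kB matches that start 104 and 103 bases before and a further one upstream of these, an interferon response core 212 bases before and an AP-1 match 74 bases before. The Jun window holds no exact match to the letters searched. Near matches were not searched, such as tgacatca in the Jun window, which differs from the cAMP response element in 1 letter. RefSeq promoters of 300 bases, which also take in 50 bases after the start, were at hand for 227 of the 308 genes that rose (283 promoters), 240 of the 303 that fell (334 promoters) and 8992 of all genes compared (11403 promoters). The NF-kB consensus occurred in 16.3% of the promoters of rising genes, 10.8% of those of falling genes and 10.4% of all. The interferon response core occurred in 14.1%, 6.59% and 8.01%, and the AP-1 element in 10.6%, 3.29% and 4.97%, in the same order. For the cAMP response element the shares were 0.707%, 2.69% and 3.25%. GGGANTTTC was found in 2.47%, 0.299% and 1.03%, and GGGANTTCC in 2.47% of the promoters of rising genes and 2.37% of all. These shares were not tested, and a match is not a bound site.

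In the TNF superfamily 2 of 7 members rose, none fell, and the median log2 ratio was 0.34. Tnf (chr17:35199367-35202007), the cytokine for which the LPS response is best known, had normalized counts of 8922, 29548, 188930.2, 270564, 84755, 108231, 196879 and 359742. Its level had thus peaked at 45 min, was lower at 60 min and was highest of all at 120 min, with a ratio of 4.25 over the second hour (4.22 to 4.27). Lta, the gene next to Tnf, went from 19.6 to 124.0 (ratio 6.33) and had passed the count minimum only at 120 min. The same course, with a peak at 45 min, a dip at 60 or 75 min and a renewed rise, was seen in Cxcl2, in Nfkbia, which encodes the NF-kB inhibitor IkB-alpha, and in the phosphatase gene Dusp2. Nfkbia had 84850 and 100497.5 at 30 and 45 min, 50927 at 60 min and 105352.5 at 120 min (ratio 2.07), and Dusp2 had 16147, 18921, 6792 and 13740.4 at these times (ratio 2.02). With total counts as the scale, the log2 ratios of Nfkbia and Dusp2 were 0.94 and 0.91, both short of 2-fold.

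Interferon beta and the genes it induces responded in part. Of 43 members compared, 11 rose, 1 fell and the median log2 ratio was 0.30. Among those that rose, Mx2 had passed the count minimum only at 120 min. Ifnb1 itself had no read at 0 min and normalized counts of 59.7, 102.8, 137 and 339 at 60, 75, 90 and 120 min (ratio 5.68, interval 4.38 to 7.46). Isg15, a ubiquitin-like modifier, went from 133 to 1242 (ratio 9.37), with 206 at 75 min and 378 at 90 min. Mx2, an antiviral GTPase gene, was at 19.6, 15.5, 14 and 116 at the same times, so its rise came within the last 30 min. Oasl1, a relative of the antiviral oligoadenylate synthetases, went from 3464 to 17205 (ratio 4.97), and Ifit1 from 124 to 325 (ratio 2.63). Irf7, a typical target of interferon signalling, stayed under 2-fold, with a ratio of 1.73. Ifit2 fell from 486 over 328 and 277 to 170 (ratio 0.350, interval 0.297 to 0.411), although it belongs to the same family as Ifit1.

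Of 26 receptors and adaptors of pattern recognition, 2 rose and 1 fell, with a median log2 ratio of 0.31. Olr1, a scavenger receptor, rose from 896 to 3299 (ratio 3.68), and Nod2, a sensor of bacterial cell wall fragments, from 1768 to 3624 (ratio 2.05), which was 0.93 on the log2 scale with total counts. Tlr13, which recognises bacterial ribosomal RNA, fell from 5966.5 over 5393 and 4181 to 2401 (ratio 0.402). The LPS receptor itself, Tlr4, had 5203 at 60 min and 3575 at 120 min (ratio 0.687), and Cd14 had 117649 and 207492 (ratio 1.76), both short of the limit. Among 49 surface receptors and costimulatory molecules, 15 rose and 4 fell (median log2 ratio 0.06). Adora2a, which rose from a normalized count of 6.2, and P2ry13, which fell, had passed the count minimum in 1 library only. Tnfrsf1b, which encodes TNF receptor 2, was at 4283 at 0 min and 5008.5 at 60 min and then went through 6927 and 9767 to 21086 (ratio 4.21). The costimulatory receptor Cd40 went from 1012 to 3860 (ratio 3.81) and Cd80, a ligand that costimulates T cells, from 1006 to 2730.4 (ratio 2.71), whereas Cd86 had a ratio of 0.981. Cd69 reached 604 at 90 min and was at 571 at 120 min, against 109.5 at 60 min. The 4 that fell were P2ry13 and P2ry12, receptors for ADP, Cxcr4, a chemokine receptor, and Ptger4, a receptor for prostaglandin E2, with ratios of 0.116, 0.477, 0.474 and 0.413.

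All 11 NF-kB and IkB genes were compared, of which 2 rose and none fell (median log2 ratio 0.69). Rel, which encodes the subunit c-Rel, went through 3541, 5954, 7591 and 9990 from 60 to 120 min (ratio 2.82), and Nfkbia was the other. The precursor genes Nfkb1 and Nfkb2 came close to the limit, with ratios of 1.93 and 1.92, and Rela had 0.920. Nfkbiz and Nfkbid, atypical IkB proteins of the nucleus, had ratios of 0.702 and 0.707. Of 33 genes listed as brakes of the response by family (A20, phosphatases, SOCS and mRNA decay), 7 rose and 2 fell (median log2 ratio 0.36). Not each of them need act as a brake, and the paper names Dusp2, which rose, among genes required for efficient induction of Tnf. The cytokine signalling inhibitors Cish and Socs3 were among the 7. Cish went from 87.3 to 1038 (ratio 11.9), after none or few reads up to 30 min, and Socs3 went through 14798, 30986, 48468 and 65652 (ratio 4.44). Zc3h12c, of the Regnase family of RNA-degrading proteins, rose from 28751 to 97253 (ratio 3.38), the ubiquitin ligase Peli1 3.04-fold and Tnip1, a partner of A20, 2.52-fold, whereas A20 itself, Tnfaip3, had a ratio of 1.85. Zfp36 (tristetraprolin) and the MAP kinase phosphatase Dusp1 had ratios of 0.723 and 0.679 and were not called. Those that fell were Trib1, a pseudokinase gene, and Zfp36l2, an RNA-binding relative of Zfp36, with ratios of 0.219 and 0.434. With total counts as the scale, Dusp2 and Socs5 no longer reached 2-fold, and Trib3, Dusp6 and Dusp14 passed it downwards.

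The immediate early transcription factors moved the other way, with 11 of 31 lower, 3 higher and a median log2 ratio of -0.61. Nr4a1 (chr15:101253902-101274795), an orphan nuclear receptor, had the largest fall of all genes. Its normalized counts were 323, 518, 8289, 17107, 13176, 4254, 1450 and 371, so that the value at 120 min was near that at 0 min (ratio 0.0282 over the second hour, interval 0.0256 to 0.0309). Jun (chr4:95049036-95052222), a component of AP-1, had 3584.5, 13951, 95943.5, 126315, 50507, 11399, 4892 and 2640 (ratio 0.0523, interval 0.0504 to 0.0541). Its partner Fosb went through 6.8, 30.5, 581, 1594, 1006, 591, 404 and 139 (ratio 0.138). Fos had most of its decline earlier, from 47988 at 45 min to 7127 at 60 min, and then had 1683, 1765 and 1854 (ratio 0.260). Egr1 and Btg2 had their lowest values of the second hour at 90 min, with ratios of 0.324 and 0.373. Junb did not share in the decline of Jun. Its values from 60 to 120 min were 123929, 67701, 79788 and 126141 (ratio 1.02). The 3 that rose were Id1, Myc and Klf7. Myc, a regulator of growth, went through 3086, 5405, 6768 and 7443 (ratio 2.41).

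Of 27 factors induced later in the response, 2 rose and 2 fell, with a median log2 ratio of 0.12. Cebpd, which encodes C/EBP-delta, was between 1975 and 2658 up to 60 min and then went through 3373 and 5082 to 10836 (ratio 5.00, interval 4.79 to 5.22). Hivep3 went from 1051 to 3059 (ratio 2.91). Arid5a, an RNA-binding protein gene, fell from 4414 to 1159.8 (ratio 0.263), and Irf1, an interferon regulatory factor, from 1388 to 485 (ratio 0.349). Irf1 had its lowest value, 368, at 90 min.

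In the list of inflammatory effector enzymes, which also holds genes of other kinds, 10 of 31 rose and none fell (median log2 ratio 0.31). Among the 10, Nos2 and Edn1 had passed the count minimum only at 120 min. Nos2, the inducible nitric oxide synthase, had normalized counts of 4.3, 1.9, 2.5, 2.3, 7.1, 22.5, 48.2 and 223, and a ratio of 31.3 (15.7 to 73.2). It stood at 0.412 rpkm at 120 min, a low level beside the 762 rpkm of Irg1. Irg1, the enzyme that makes itaconate, went through 33591, 52348, 97103 and 257578 from 60 to 120 min (ratio 7.67, interval 7.59 to 7.75). Ptgs2, the inducible cyclooxygenase, went through 7747, 14278, 23416.5 and 51508 (ratio 6.65), and Ptges, the prostaglandin E synthase, rose 2.74-fold. Edn1, which encodes the peptide endothelin-1, went from 19.6 to 438 (ratio 22.3). Others that rose were Hdc, which makes histamine (ratio 7.11), Odc1 of polyamine synthesis (3.13) and the cystine carrier Slc7a11 (3.04). Sod2, Hmox1 and the NADPH oxidase gene Cybb had ratios of 1.65, 0.823 and 1.24.

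Regulators of survival and death rose in 8 of 34 cases and fell in 2 (median log2 ratio 0.20). Gadd45b, a stress-inducible growth arrest gene, went through 2281, 6724, 11436.5 and 17567 (ratio 7.70, interval 7.39 to 8.03). The death receptor Fas went from 219.9 to 1147 (ratio 5.21), Ripk2, a kinase that signals from NOD receptors, from 1782 to 7187 (ratio 4.03), and the anti-apoptotic Bcl2l1 from 4073 to 13282.5 (ratio 3.26). Bcl2a1a, Bcl2a1b and Bcl2a1d, with ratios of 9.94, 3.13 and 3.24, are near-identical copies, and how the reads divide among them is uncertain. Of these, Bcl2a1a had passed the count minimum only at 120 min and so had to differ. The 2 that fell were Gadd45g, from 938.5 to 308 (ratio 0.328), and the pro-apoptotic Pmaip1, from 3610 to 1733 (ratio 0.480). Mcl1, an abundant short-lived relative of BCL2, had a ratio of 1.14.

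The remaining largest rises were in genes of other kinds. Zfp811 (chr17:32795676-32810057), a numbered zinc finger gene, had the largest ratio of all genes, with normalized counts of 5.1, 1.0, 1.6, 4.5, 16, 78.9, 286 and 1624 (ratio 101, interval 64.0 to 171). Zfp811 had passed the count minimum only in the later library and so had to differ. Among 270 numbered zinc finger genes, Zfp811 included, 13 rose, 6 fell and the median log2 ratio was 0.24. The next largest ratio among them was that of Zfp82 with 2.97, and the lowest were those of Zfp710 with 0.307 and Zfp367 with 0.372. Abtb2 was between 91.4 and 137 for the first hour and then went through 428 and 936 to 2597 (ratio 18.9, interval 16.1 to 22.4).

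Several of the largest falls were in genes that LPS had not raised. C130050O18Rik had normalized counts of 3202, 3212.5, 2949.5, 2328, 1629, 834, 475 and 146 (ratio 0.0895, interval 0.0764 to 0.104). Lyl1, a transcription factor of the haematopoietic lineage, had 13286, 12918, 12430, 10076, 7130, 3846, 2728 and 1289 (ratio 0.181), and Kbtbd11 had 7989 at 0 min, 3007 at 60 min and 592 at 120 min (ratio 0.197). These 3 were lower at 60 than at 0 min and lower still at 75, 90 and 120 min. 5031414D18Rik, which RefSeq lists as Rubcnl, and Lpar5, a receptor for lysophosphatidic acid, had the same order, with ratios of 0.157 and 0.168. Frmd4b was near its starting level at 60 min, with 9096 at 0 min and 8859 at 60 min, and then went through 6579 and 4545 to 1685 (ratio 0.190). Il21r and P2ry13 rest on 9.7 normalized counts each at 120 min, against 100.6 and 83.7 at 60 min.

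Other falls were of genes that stood above their 0 min level at 60 min. Arc, an immediate early gene best known from neurons, had 587, 8478, 5483, 920.5 and 1014 at 0, 45, 60, 90 and 120 min (ratio 0.185). Ddit4, an inhibitor of the growth kinase complex mTORC1, had 179.7, 1386, 829, 270.4 and 81.0 at these times (ratio 0.0978). Chac1, an enzyme that breaks down glutathione, had 869, 4744, 3779.7, 2114 and 816 (ratio 0.216). Trib1 was highest at 60 min itself, with 1208 at 0 min, 8412 at 60 min and 1845 at 120 min.

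Lists of basic cell functions differed in their number of calls, to be read beside the 2.75% of all genes that rose and the 2.70% that fell. None of 25 mitosis genes, 80 cytoplasmic ribosomal protein genes, 74 genes of mitochondrial respiratory complexes, 50 small nucleolar RNAs, 32 ribosome biogenesis genes or 29 lysosomal genes passed 2-fold in either direction. All 32 ribosome biogenesis genes had ratios above 1, from 1.03 to 1.54, which held for 25 of them with total counts as the scale, where the median log2 ratio went from 0.20 to 0.10. The highest ratio was that of Polr1b, a subunit of RNA polymerase I. The median log2 ratio of the 53 histone genes compared was 0.33, and 1 of them, Hist2h2be, fell (ratio 0.478). Of 30 DNA replication genes 2 fell and none rose (median log2 ratio -0.25). They were E2f2, a transcription factor of S phase entry, which went through 5248, 3356, 2458 and 1620 (ratio 0.309), and Cdc6, a licensing factor, which went from 6844 to 3362 (ratio 0.491). In the list of sterol synthesis and LXR target genes, 1 of 27 rose and 2 fell (median log2 ratio -0.06). Insig1, a brake on sterol synthesis, went from 68247 to 28869 (ratio 0.423), and the cholesterol exporters Abca1 and Abcg1 moved apart, with ratios of 2.19 and 0.499. Of 12 clock genes, Nr1d1 (ratio 2.57) and Arntl (2.28) rose and Bhlhe41 fell (0.291), with a median log2 ratio of -0.37. No macrophage marker passed the limit, and Fcgr1, an Fc receptor gene, was nearest to it with 11034 at 60 min and 5561 at 120 min (ratio 0.504).

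**Figure D3:**
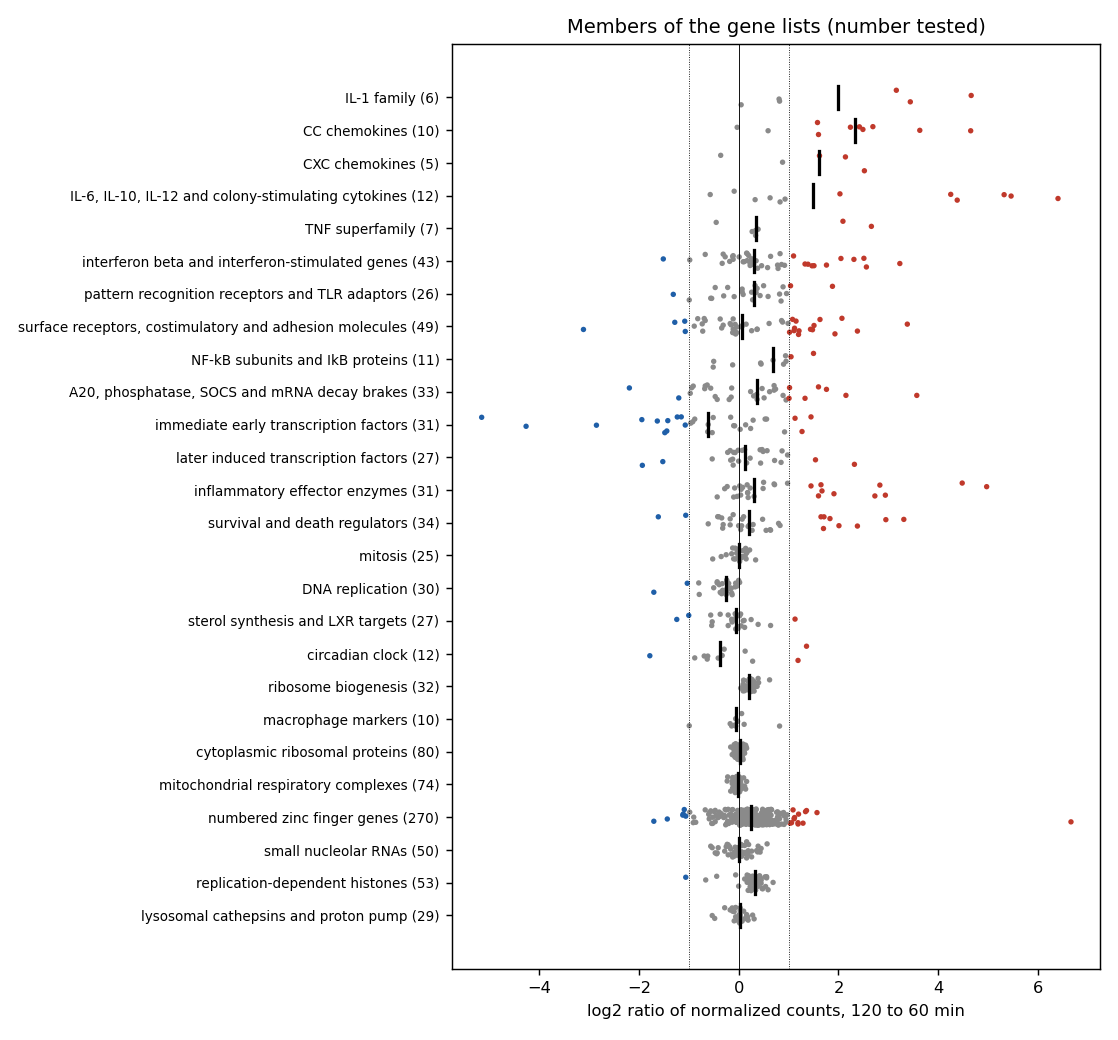
Log2 ratio of normalized counts at 120 to 60 min (horizontal) of every compared member of 26 gene lists, 1 point a gene, with black bars at the list medians, dotted lines at 2-fold and the number compared after each name. The 4 lists of interleukins, chemokines and colony-stimulating factors at the top have the highest medians, from 1.48 to 2.33, the immediate early transcription factors have the lowest, -0.61, and ribosomal, mitochondrial and lysosomal genes lie between the dotted lines. The point at the far right in the zinc finger list is Zfp811.

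The counts of the 75 and 90 min libraries did not enter the ratios of 120 to 60 min, other than through the size factors, which all 8 libraries share. They give the direction of the called genes in another pair of libraries. From 75 to 90 min, 301 of the 308 genes that rose over the whole hour were higher (97.7%), against 48.6% of all genes compared, and 288 of the 303 that fell were lower (95%), against 51.4% of all. The median log2 ratio of 90 to 75 min was 0.37 for the genes that rose and -0.34 for those that fell, and close to 0 for all. Both libraries of the pair had a higher Rn45s share than those of 60 and 120 min, and the part of this in the values was not tested. From 45 to 90 min the median log2 ratios were 1.24 and -0.99.

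The 4 values at 60, 75, 90 and 120 min stood in rising order in 271 of the 308 genes that rose (88.0%) and in falling order in 263 of the 303 that fell (86.8%). Over all genes compared, 16.3% rose and 16.9% fell in order. The ends of this order are the libraries that made the calls, so these shares say only where the values at 75 and 90 min lay. They place Tnf, Il1a, Il1b, Ccl4, Il6 and Nr4a1 among the ordered genes. Cxcl2, Mx2 and Arc were not ordered, since their extreme values lay at 75 or 90 min.

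**Figure D4:**
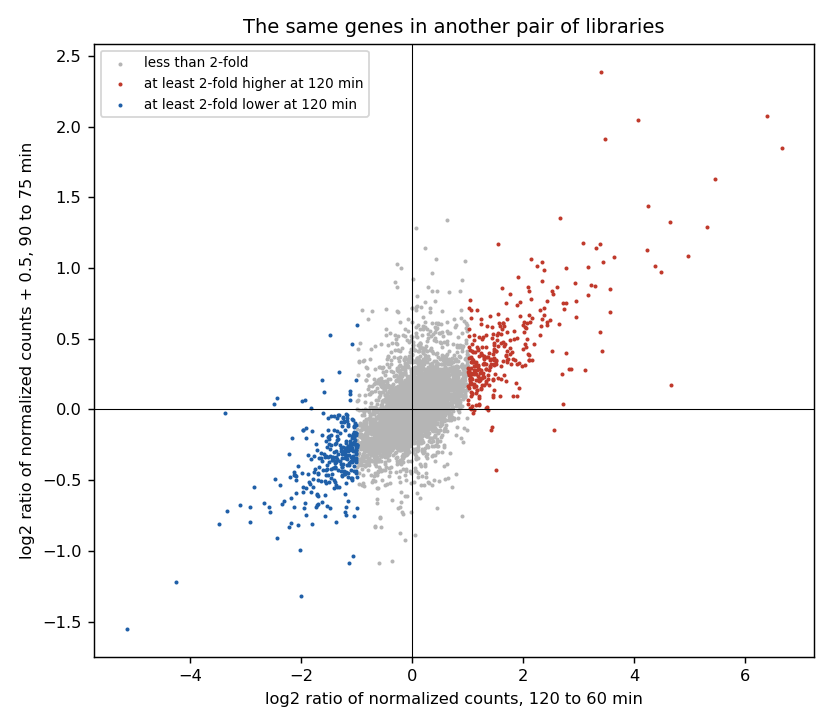
Log2 ratio of normalized counts plus 0.5 at 90 to 75 min (vertical) against the log2 ratio at 120 to 60 min (horizontal) for each of the 11210 genes, where the axes come from different libraries with shared size factors. Of the genes that rose, 301 of 308 lie above the horizontal line, and of those that fell, 288 of 303 lie below it.

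The libraries of 0 and 30 min likewise entered the calls only through the shared size factors. At 30 min 33 of the 308 genes that rose in the second hour (10.7%) were already at least 2-fold above 0 min, and 18 of the 303 that fell (5.94%), against 1.17% of all genes compared. For these ratios 0.5 was added to each normalized count, and no count minimum was set at 0 or 30 min. Some of the 33 therefore rest on few reads, such as Il6, with normalized counts of 0.9 and 3.3, and Gfpt2, with 0.0 and 0.8. Median log2 ratios of 30 to 0 min were 0.12, 0.05 and 0.01. The largest early rises among genes higher in the second hour with reads at 0 min were those of Cxcl2, Tnf, Il1a, Il1b and Dusp2, and among genes lower in the second hour those of Fosb, Jun, Nr4a1, Btg2 and Egr1. Ccl5, Zfp811, Abtb2, Il27 and Ccl22 were not among the 33.

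The genes whose course over the 8 libraries was most like that of Il1b were Il1a, Slfn2, Rrs1, Cxcl10 and Gp49a, by Pearson correlation of log2(normalized count + 1) over 8 libraries. The 10493 genes whose normalized counts averaged 100 or more were considered. Their coefficients ran from 0.993 to 0.997, and since time is shared by all points, they describe a steady climb. The size of the climb differed widely. Il1b was 10.85-fold higher at 120 than at 60 min, but Slfn2, of the Schlafen family, 2.39-fold and Rrs1, a ribosome biogenesis factor, 1.29-fold, with 24299 at 60 min and 31439 at 120 min. Gp49a, a receptor of the leukocyte immunoglobulin-like family that RefSeq lists as Lilr4b and that has a close paralogue, was 2.29-fold higher.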

How the data were processed

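The authors sequenced RNA depleted of ribosomal RNA, aligned 58-base reads by Bowtie to the RefSeq transcripts listed for mm10, allowing 2 mismatches, discarded reads of more than 1 gene symbol, and deposited raw read counts per symbol. The submitters' processing notes name CASAVA 1.8.2, DESeq 1.10.1 and the builds mm10 and GRCm38. From the deposited counts, size factors, ratios and exact conditional binomial (Clopper-Pearson) 95% intervals were computed in Python 3.11.15 with scipy 1.17.1, and the code was tested on simulated data. Where no read was counted, up to 3 counts were allowed for, which is 0.0223 cpm (counts scaled to the library total) at 60 min and 0.0189 cpm at 120 min. No called gene had a count of 0 in either library. TMM factors and an exact test came from edgeR 4.0.16 in R 4.3.3, as alternatives only. Transcript lengths (GENCODE vM21) were matched by RefSeq accession for 11042 of 11210 genes, and positions, from the RefSeq table of GRCm38.p6, for 11172.

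The genes named were the 3 markers Il1a, Il1b and Ccl4, the 15 largest rises and 15 largest falls ranked by the interval bound nearest to 1, the 3 highest and 3 lowest members of each of 27 gene lists by the same bounds, list members that define a role, Rn45s and the 5 genes most like Il1b. Genes near the limit, and those named for the first 30 min, were picked once the values were known. The genes and lists were chosen with earlier results of these data known. The microarray measurements of ribosome load were not analysed here. The sources used here do not say that the cultures were prepared separately.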

Additional observations from a re-analysis of the deposited data

How the results depend on the processing

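No paired analysis was possible because each time point has 1 library. The number of genes that rose and fell, 308 and 303, kept within 1.5 times with each of the 4 other scales and with a pseudocount of 1. A minimum of 10 raw counts gave 476 and 464, no minimum gave 1191 and 1421, and 500 raw counts left 182 falls. The limits of 1.5-fold and of a log2 ratio beyond 0.5 gave 736 and 814, and 928 and 1035. With the whole interval past 2-fold, 190 falls were left. The exact test of edgeR, with the dispersion of all 8 libraries taken as replicates and an adjusted p limit of 0.05, left 100 rises and 64 falls of those 2-fold changed. With 75 min in place of 60 min there were 179 and 112, and with 90 min in place of 120 min 122 and 114, of which 154, 102, 107 and 94 were shared with the calls above. Total counts lowered every log2 ratio by 0.11, and total counts without Rn45s lowered them by 0.09. With either, Nod2, Nfkbia, Dusp2, Socs5, C5ar1 and Gpr84 no longer reached 2-fold. Ifi47, Tlr3, Trib3, Fcgr1, Dusp6, Dusp14, Nr4a2 and Klf6 then passed it downwards. With Rn45s included in the total, Isg20 and Cd44 were also lost and Tgfbr2 also passed downwards. The counts of members called in the lists of these genes hold for size factors only. A scale shifts every log2 ratio by the same amount, here 0.11 at most, so no value past 2-fold could change its direction. Over the scales and the pseudocount, a list median stayed between the median interval bounds of its members 101 times and left them 34 times. Total counts, total counts without Rn45s and TMM factors were also tried for the direction from 75 to 90 min and for the order of the 4 values. They were tried after the data were seen, and left those counts within 1.5 times. A single library a time point limits all of these values, since neither culture nor library preparation was repeated. Depth limits the lowest genes, such as Csf2, Il33 and P2ry13, whose intervals are wide.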
